A study of Mus musculus with 62 samples.

Results

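The comparison described here is that of caput epididymis from recolonized germ-free (GF) mice with caput from the second set of specific pathogen free (SPF) controls. It rests on 8 of the 62 libraries of the series, chosen by their labels: 3 recolonized libraries and 5 SPF set 2 libraries, each from the tissue of 1 animal. All were wild-type C57BL/6 adult males of 8 to 14 weeks. Rag2 knockout mice, named below for a few genes, lack T and B cells. The recolonized mice descended from GF animals that had been moved into conventional housing and bred there for many generations, and they came from another laboratory's colony. The SPF mice derived from animals bought from a commercial breeder, and the GF mice used below for comparison came from isolators of a university core facility. Colony of origin and microbial history therefore differ together between recolonized and SPF mice and cannot be told apart. The study included these animals to ask whether expression changes seen in GF males and in their F1 sons (GF father, SPF mother) also occur in mice of GF descent that carry microbes.

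The caput is the first part of the epididymis, where spermatozoa newly arrived from the testis begin to mature. Its principal cells secrete lipocalins, beta-defensins, protease inhibitors and antioxidant enzymes into the lumen, and the epithelium and its resident macrophages hold sperm antigens and ascending microbes in check. GF mice lack the microbial signals that shape much of the immune system, and a mouse line kept apart for generations also gathers genetic differences from its founders.

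Expression was measured in TPM, the share of a library's transcripts that a gene takes after correction for gene length, so every library has the same total. Differences are recolonized minus SPF set 2 on the log2(TPM + 1) scale, which understates the change of genes of low level. Of 23845 genes, 12561 averaged 1 TPM or more across these 8 libraries and were tested. A gene was called when the limma adjusted p was at most 0.05 and the fold on that scale at least 1.5.

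The libraries were alike in breadth, with 16438 to 17280 genes above 0 TPM. Across the tested genes, pairs of recolonized libraries correlated at 0.972 to 0.987, pairs of SPF set 2 libraries at 0.986 to 0.992, and pairs across the groups at 0.968 to 0.987. The caput label fitted the data: Gpx5, the secreted glutathione peroxidase of the caput, lay between 29517 and 35193 TPM in all 8 libraries. Recolonized replicate 1 stood apart, at -38.5 on the first principal component (32.5% of the variance) where the other 7 libraries lay between -3.40 and 16.5. In it, genes of secreted proteins chosen after their values were seen were low: Lcn5 was at 282 TPM against 4272 and 4295 in the other recolonized libraries, and Serpina1f at 1.90 against 115 and 118. The same genes also varied within SPF set 2, where Lcn5 ranged from 1273 to 3764 and Serpina1f from 28.8 to 161. Leaving out this library gave 26 calls, of which 14 were among those made with it.

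The 2 SPF sets were themselves far apart. Caput of SPF set 2 and of SPF set 1, the controls of the GF and F1 mice, differed at 2343 of 12336 genes (19% called, 2183 or 17.7% higher in set 2), and the median difference over all genes was 0.18. Every comparison below was made against the controls of its own set. Of the 22 genes called below, 19 also lay apart from all 9 SPF caput libraries of both sets, the exceptions being Apol9b, Ccl19 and Nnt. All 22 were already apart from the libraries of SPF set 2. The share over all tested genes was not counted, so the 19 are a description only.

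Few genes separated the recolonized caput from its controls. In all, 22 genes were called (0.175% of those tested), 15 higher (0.119%) and 7 lower (0.0557%) in recolonized mice. All 22 had groups that did not overlap, as did 747 genes in all (5.95%). An unadjusted p below 0.05 was met by 1023 genes (8.14%), 506 higher (4.03%) and 517 lower (4.12%), and the median difference over all genes was 0.02. The adjusted p nearest the threshold were 0.0494 for Sox7 and Gm17727, inside it, and 0.0501 for 1700112E06Rik, outside it. Of the 22 genes, 11 differed at least 2-fold on that scale.

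**Figure D1:**
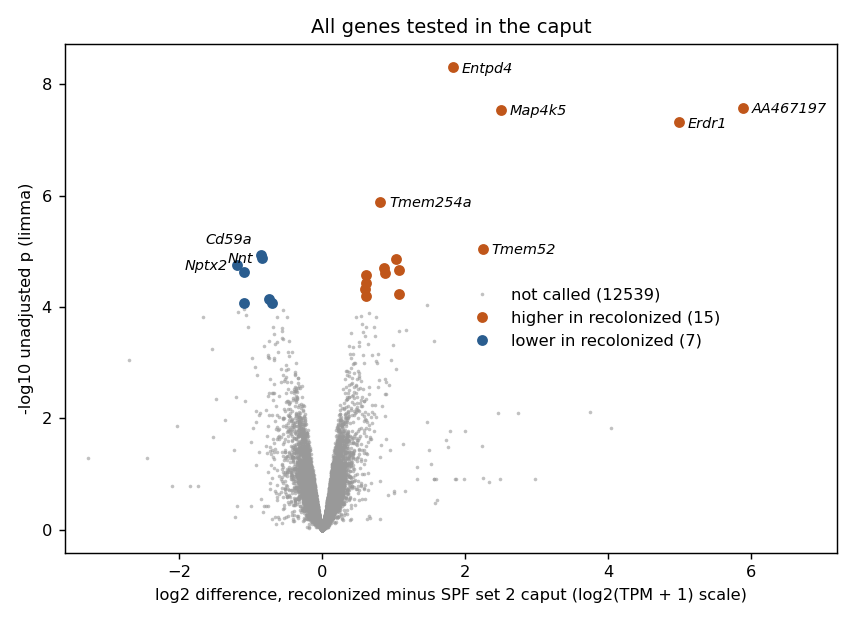
Difference between recolonized and SPF set 2 caput (x axis, log2(TPM + 1) scale) against -log10 of the unadjusted limma p (y axis), 1 point for each of 12561 genes. The 15 called higher and 7 called lower are coloured, and AA467197 and Erdr1 lie farthest to the right.

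With a pseudocount of 1 the greatest difference was at AA467197 (with 0.1 it was at Erdr1, which is listed at 0 in all controls), a small gene on chromosome 2 (chr2:122637887-122641076, GRCm38) whose human counterpart is known as C15orf48 or NMES1. Its protein is a relative of the respiratory chain subunit NDUFA4, and its transcript carries the precursor of the microRNA miR-147. It stood at 85.4, 227 and 156 TPM in the recolonized libraries and at 1.68, 1.04, 0.60, 2.93 and 1.65 in SPF set 2. Every recolonized library was thus far above every control. The difference was 5.89 ± 0.34 (SE), 59.1-fold, with a limma adjusted p of 0.000121.

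The miR-147 hairpin (chr2:122640803-122640881, plus strand) lay within an exon of 3 of the 4 AA467197 transcripts in the GENCODE annotation. It is shown because it is part of this transcript. The sequences are from RefSeq (GRCm38.p6). Capitals mark the 5p arm in the hairpin and, in the mature 5p miRNA, its seed, bases 2 to 8. The other arm of the hairpin had no entry in the sources used and is not marked. Which arm acts was not examined. Poly(A) libraries do not measure the mature miRNA.
Mir147 hairpin: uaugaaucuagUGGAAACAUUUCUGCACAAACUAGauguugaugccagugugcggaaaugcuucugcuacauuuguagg
mmu-miR-147-5p: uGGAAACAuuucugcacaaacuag

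AA467197 had a particular pattern in the rest of the series. In GF caput it stood at 121, 137, 141 and 135 TPM in replicates 1 to 4 but at 1.35 and 28.8 in replicates 5 and 6, against 0.59 to 1.41 in SPF set 1. The groups overlapped through replicate 5, and the GF difference of 4.82 ± 1.03 missed the threshold (limma adjusted p = 0.0695). In F1 caput it lay between 0.67 and 0.89 TPM, and in Rag2 knockout caput at 0.38 and 1.53, in or near the range of SPF set 1. The recolonized effect exceeded the F1 effect by 5.95 (limma interaction, adjusted p = 7.15e-06). In recolonized cauda, the sperm-storing last part of the epididymis, it stood at 325 to 451 TPM against 1.14 to 3.80 in SPF set 2 cauda. In GF cauda, which no label ties to the GF caput animals, it stood at 374, 286, 325 and 140 TPM in replicates 1 to 4. In replicates 5 and 6 it stood at 0.52 and 153, against 0.96 to 2.66 in SPF set 1 cauda. In testis it was high in all groups, with means of 693 TPM in recolonized and 619 in SPF set 2, a difference of 0.17 that did not pass (adjusted p = 0.224).

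Ndufa4, the relative of AA467197 in the respiratory chain, was looked at after its values had been seen. In human cells the protein of the AA467197 counterpart and the microRNA are known to displace and to repress NDUFA4. Ndufa4 stood at 430, 443 and 392 TPM in the recolonized libraries and at 594, 599, 628, 604 and 543 in SPF set 2. The groups did not overlap, but the difference of -0.49 ± 0.08 just missed the threshold (limma adjusted p = 0.0569). In GF caput Ndufa4 stood at 534, 508, 529 and 490 TPM in replicates 1 to 4, and at 631 and 632 in replicates 5 and 6. The latter were also the GF libraries of lowest AA467197, at 1.35 and 28.8 TPM. F1 and Rag2 knockout caput did not follow this pattern. Ndufa4 stood at 577 to 632 TPM in F1 caput and at 633 and 636 in Rag2 knockout caput. These lay below the 660.5 to 757 of SPF set 1, although AA467197 was in or near the control range there. In cauda Ndufa4 was lower in recolonized mice (563 to 612 TPM) than in SPF set 2 (927 to 1103), a called difference of -0.78 ± 0.10 (limma adjusted p = 0.0194). In GF cauda Ndufa4 stood at 983 TPM in replicate 5, where AA467197 was at 0.52. In the other GF cauda libraries Ndufa4 stood at 621 to 746 TPM, with AA467197 at 140 to 374. Whether one gene's level affects the other was not tested.

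Map4k5 (chr12:69803757-69893163), a kinase of the germinal centre kinase family that acts upstream of JNK signaling, stood at 23.2, 22.2 and 16.1 TPM in recolonized caput. In SPF set 2 it stood at 3.51, 2.24, 2.48, 3.13 and 2.58. The groups lay well apart, with a difference of 2.50 ± 0.15 (5.65-fold, limma adjusted p = 0.000121). In GF caput it stood at 3.62, 7.28, 4.5 and 7.74 TPM in replicates 1 to 4 and at 1.33 and 0.82 in replicates 5 and 6, against 1.33 to 1.97 in SPF set 1. GF replicates 5 and 6, the libraries of lowest AA467197, lay at or below the lowest control for Map4k5. The difference between the recolonized and the GF effect was 1.74 and did not pass (limma adjusted p = 0.498). In GF cauda Map4k5 split likewise, at 14.9 to 24.5 TPM in replicates 1 to 4. Replicates 5 and 6 stood at 1.65 and 2.27 there, against 0.91 to 4.42 in SPF set 1 cauda.

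Tmem52 (chr4:155469114-155470858), which encodes a transmembrane protein, stood at 52.6, 29.5 and 28.8 TPM in recolonized caput and at 7.75, 3.79, 7.66, 7.61 and 7.72 in SPF set 2. Even the lowest recolonized library was far above the highest control. The difference was 2.24 ± 0.26 (4.74-fold, limma adjusted p = 0.0187). No other caput group stood as high: GF libraries lay between 4.66 and 9.98 TPM, F1 between 9.60 and 15.6 and SPF set 1 between 7.75 and 13.7. Tmem52 was the 1 gene of 12261 (0.00816%) whose recolonized effect differed from the GF effect, by 2.45 ± 0.35 (limma interaction, adjusted p = 0.0271). This call was lost with a pseudocount of 0.1 (adjusted p = 0.0636) and without SPF set 1 replicate 1 or 3, GF replicate 1, SPF set 2 replicate 1, 3, 4 or 5, or recolonized replicate 1 (adjusted p up to 0.0814), with a difference of 2.18 or more throughout. In recolonized cauda it stood at 60.9 to 99.3 TPM against 6.39 to 13.2, and that difference was called too (limma adjusted p = 0.000678).

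Erdr1 and Entpd4 were high in recolonized, GF, F1 and Rag2 knockout caput. Erdr1, named for a factor of erythroid differentiation, lies in the pseudoautosomal region and is annotated as a transcribed pseudogene (chrX:170010526-170018797). It stood at 55.01, 33.3 and 15.5 TPM in recolonized caput and was listed at 0 in all 5 SPF set 2 libraries (limma adjusted p = 0.00015). In GF caput it lay between 39.4 and 76.9 TPM and in F1 caput between 2.79 and 8.74, while SPF set 1 held it at 0 to 0.13. It stood at 52.8 and 55.7 TPM in Rag2 knockout caput, a line whose descent the labels do not give. The recolonized effect exceeded the F1 effect by 2.30 (limma interaction, adjusted p = 0.0257) and did not differ detectably from the GF effect (-0.91, adjusted p = 0.522).

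Entpd4 (chr14:69337151-69366742), an enzyme of the Golgi and lysosome that cleaves nucleoside diphosphates and triphosphates, stood at 370, 330 and 334 TPM in recolonized caput. The controls stood at 108, 87.9, 92.7, 94.6 and 98.5. The difference of 1.83 ± 0.09 (3.56-fold) had the lowest adjusted p of the comparison (6.18e-05). In GF caput it was 1.85 ± 0.08, and the difference between these effects was -0.02 (adjusted p = 0.968). The F1 mice, with 1 GF parent, stood between at 221 to 260 TPM. Rag2 knockout caput held Entpd4 at 377 and 438 TPM. Erdr1 and Entpd4 have near-identical copies in the genome, so the RSEM values may divide reads among copies, and a sum over copies was not measured. Erdr1 and Entpd4 were also called in recolonized cauda and testis.

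Other genes that were called as higher include Apol9b, Xaf1 and Ccl19. Apol9b, an interferon-inducible apolipoprotein L, stood at 11.3, 11.8 and 14.1 TPM in recolonized caput and at 3.81 to 6.12 in SPF set 2 (difference 1.08 ± 0.14, limma adjusted p = 0.0221). Xaf1, an interferon-inducible partner of the apoptosis inhibitor XIAP, stood at 2.27, 2.64 and 2.68 TPM against 1.15 to 1.56 (0.61 ± 0.08, adjusted p = 0.0353). Ccl19, the chemokine that draws dendritic cells and T cells through CCR7, stood at 5.37, 4.06 and 4.93 TPM against 1.78 to 2.56 (0.86 ± 0.11, adjusted p = 0.0221). Each rose, but from low levels. For Apol9b and Ccl19 the choice of controls mattered. SPF set 1 held Apol9b at 9.60 to 13.3 TPM and Ccl19 at a mean of 4.90 ± 1.56 (SD, n = 4), so recolonized values were above their own set only. Ccl19 and Apol9b also have close copies, of which Apol9a was at 0.31 to 0.58 TPM over the 8 libraries.

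A motif of interferon response elements, GAAA repeated after a spacer of any 2 bases, on either strand, was looked for in the 250 bases before each start in the RefSeq promoter table, which for some genes lies inside the annotated gene. Of the called genes, 12 had a promoter in the RefSeq table and 3 of these held the motif: Apol9b, Ccl19 and Cd59a, the last of which was lower in recolonized mice. Over all 9491 tested genes with a promoter, 2.83% held it. Both genes that were higher are shown here, 5′ to 3′ on the strand of the gene and cut at the annotated gene start, with the motif in capitals. A match of letters is a description and not a measured binding site. The Apol9b stretch is chr15:77728822-77729046, plus strand, and the Ccl19 stretch is chr4:42756366-42756615, minus strand, both from RefSeq (GRCm38.p6).
Apol9b upstream: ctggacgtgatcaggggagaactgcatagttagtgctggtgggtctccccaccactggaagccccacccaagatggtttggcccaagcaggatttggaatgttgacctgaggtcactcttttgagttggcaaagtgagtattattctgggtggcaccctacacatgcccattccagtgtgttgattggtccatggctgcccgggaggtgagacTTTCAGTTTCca
Ccl19 upstream: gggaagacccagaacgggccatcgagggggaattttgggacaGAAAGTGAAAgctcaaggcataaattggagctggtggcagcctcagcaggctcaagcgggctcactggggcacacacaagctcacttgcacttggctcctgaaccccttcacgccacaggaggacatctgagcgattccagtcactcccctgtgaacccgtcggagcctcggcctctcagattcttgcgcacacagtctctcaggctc

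Gpnmb, a glycoprotein of phagocytes and lysosomal stress, stood at 82.1, 75.3 and 72.0 TPM in recolonized caput and at 46.2 to 53.2 in SPF set 2 (0.61 ± 0.08, adjusted p = 0.0294). Arrb2, the signaling adaptor beta-arrestin 2, stood at 113, 102 and 110 TPM against 65.4 to 77.4 (0.62 ± 0.08, adjusted p = 0.0221). Both rose by about the smallest fold that counted. Gpnmb was also called in F1 caput (1.21 ± 0.17, adjusted p = 0.0216).

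The remaining genes that rose have varied roles. Slc6a13, a transporter of GABA and taurine, stood at 10.9, 12.2 and 12.3 TPM against 4.00 to 6.46 (1.04 ± 0.12, adjusted p = 0.019). It was also called in GF caput (1.52 ± 0.16, adjusted p = 0.00318) and in F1 caput (0.88 ± 0.21, adjusted p = 0.0495), so it rose in all 3 groups. Tmem254a, a transmembrane protein, stood at 382, 354 and 392 TPM against 202 to 221 (0.81 ± 0.07, adjusted p = 0.00324) and rose likewise in cauda (0.80 ± 0.12, adjusted p = 0.0304). It too has close copies. Sdk2, an adhesion molecule of the immunoglobulin family, differed by 0.88 ± 0.11 and Pramef12, of the PRAME family, by 1.07 ± 0.15 (adjusted p of 0.0221 and 0.0408). Calr3, a calreticulin best known from spermatids, differed by 0.62 ± 0.09 from means of 3.34 and 1.84 TPM (adjusted p = 0.0423).

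Of the 7 genes that fell, Lcn6 was the most abundant. It encodes an epididymal lipocalin, a small secreted carrier protein (chr2:25676638-25681608), and stood at 1309, 902 and 939 TPM in recolonized caput against 2008, 2354, 2583, 2101 and 2049 in SPF set 2. The groups were far apart, with a difference of -1.09 ± 0.14 (limma adjusted p = 0.0221). Lcn6 stood at 920 to 1629 TPM in F1 caput, where it was called as lower (-1.06 ± 0.19, adjusted p = 0.0348), and at 1191 to 2077 in GF caput, below all 4 SPF set 1 libraries (-0.66 ± 0.14, adjusted p = 0.0653). Cauda hardly expressed it, at 0 to 0.15 TPM in recolonized and SPF set 2 libraries.

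Nptx2, a secreted neuronal pentraxin, stood at 10.3, 13.7 and 14.9 TPM against 25.6, 28.4, 29.3, 37.1 and 33.2 (-1.19 ± 0.15, adjusted p = 0.0219). It was also called as lower in F1 caput (-1.37 ± 0.22, adjusted p = 0.0322) but not in GF caput (-0.29 ± 0.17, adjusted p = 0.381). In cauda the sign turned, with 7.92 to 10.8 TPM in recolonized against 3.59 to 8.22 in SPF set 2. The caput effect was lower than the cauda effect by 1.70 ± 0.27 (limma interaction, adjusted p = 0.024).

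Cd59a, the anchored inhibitor that keeps the complement membrane attack complex from forming, stood at 18.9, 17.8 and 14.4 TPM against 31.0, 33.2, 30.8, 33.6 and 29.0. It fell by 0.86 on the log2 scale (SE 0.10, adjusted p = 0.019). In recolonized cauda it stood at 13.6 to 15.02 TPM against 30.1 to 46.7 and was called too (-1.34 ± 0.14, adjusted p = 0.00578). GF caput, at 9.81 to 23.1 TPM, lay below the 23.5 to 31.1 of SPF set 1 without passing (-0.97 ± 0.20, adjusted p = 0.0653). Its close copy Cd59b was at 0.97 and 1.72 TPM in the recolonized and control means, a difference of -0.46 that did not pass (adjusted p = 0.405).

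Nnt, the mitochondrial transhydrogenase that makes NADPH, is a gene in which C57BL/6J and C57BL/6N substrains are known to differ by a deletion. It stood at 9.76, 7.32 and 8.96 TPM in recolonized caput and at 17.2, 16.8, 14.7, 16.7 and 15.7 in SPF set 2 (-0.84 ± 0.10, adjusted p = 0.019). GF caput showed a like difference from its own controls, 3.97 to 6.59 against 7.87 to 11.4 TPM (-0.81 ± 0.13, adjusted p = 0.0262). The SPF sets differed as well, by 0.69 ± 0.10 (adjusted p = 0.000469), so recolonized replicates 1 and 3 lay within the range of SPF set 1 and replicate 2 just below it. With both SPF sets as controls Nnt was not called (adjusted p = 0.454). No sequence variant was examined.

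Id1, a helix-loop-helix inhibitor of differentiation that BMP signals induce, stood at 13.5, 15.3 and 16.1 TPM against 21.9 to 29.1 (-0.74 ± 0.11, adjusted p = 0.0452). Sox7, a transcription factor of endothelium, stood at 1.39 to 1.44 TPM against 2.49 to 3.74 (-0.70 ± 0.10, adjusted p = 0.0494). Gm17727 stood at 191, 260 and 257 TPM against 392 to 588 (-1.09 ± 0.16, adjusted p = 0.0494). In each of the 3 the groups did not overlap.

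**Figure D2:**
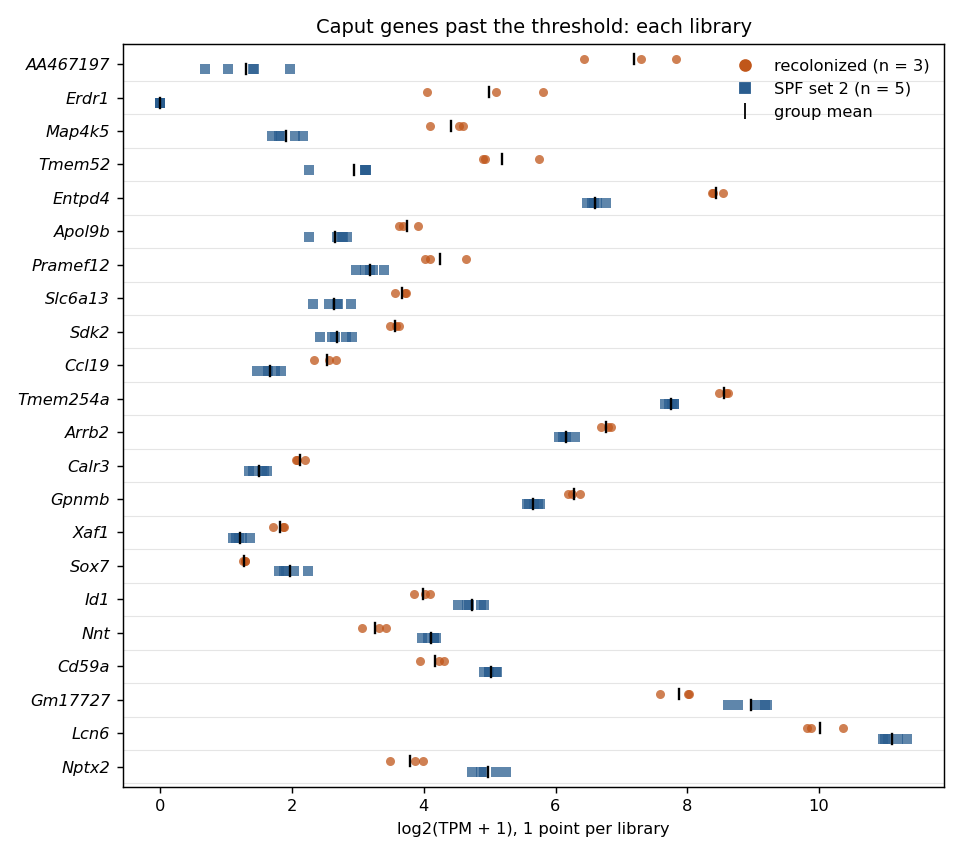
Level of the 22 called genes in log2(TPM + 1) (x axis), 1 point per library, with circles for the 3 recolonized and squares for the 5 SPF set 2 libraries and a bar at each group mean. No gene has overlapping groups, and Erdr1 is listed at 0 in all 5 controls.

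By position, 20 of the 22 genes matched RefSeq symbols. Of these, 4 lay on chromosome 2 (AA467197, Cd59a, Lcn6 and Id1), which holds 8.1% of the 11933 tested genes with a chromosome, and 3 on chromosome 14 (Entpd4, Tmem254a and Sox7), which holds 3.44%. A further 3 lay on chromosome 11, which holds 8.62%. Those on chromosome 2 are not neighbours: besides AA467197 and Lcn6, given above, Cd59a lies at chr2:104095753-104115410 and Id1 at chr2:152736251-152737410. Closer pairs lay on the other chromosomes. Arrb2 lies at chr11:70432485-70440828 and Xaf1 at chr11:72301461-72313733. Sox7 lies at chr14:63943706-63950732, on the chromosome of Entpd4, given above.

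The calls did not rest equally on all libraries. AA467197, Erdr1, Map4k5, Entpd4 and Tmem254a were called whichever of the 8 libraries was left out. Tmem52 was lost only without SPF set 2 replicate 5 (adjusted p = 0.0537). Each of the other 16 was lost without at least 1 library, with the highest adjusted p between 0.063 and 0.176 and the sign kept throughout. Calr3, Gpnmb, Sox7, Id1 and Gm17727 were lost whichever library was left out. The number of calls was 26 without recolonized replicate 1, but 13 and 12 without replicates 2 and 3. It was 20, 6, 13, 7 and 6 without SPF set 2 replicates 1 to 5.

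The design implies a comparison with the GF caput, since the recolonized mice descend from GF animals, though whether from the colony of these GF mice is not stated. The GF effect was measured against SPF set 1, so no library is shared. In GF caput 41 of 11790 genes were called (0.348%). All 41 were tested in recolonized mice, and 39 of them (95.1%) had the same sign there, beside 51.3% of the 11622 genes tested in both. The exceptions, named after their values were seen, were Gm9999 (0.43) and Tmem87a (0.01). At an unadjusted p below 0.05, 27 of the 41 passed in recolonized caput, all with the GF sign. The sizes were smaller on the whole: the median size of the GF difference was 0.96, and that of the same genes in recolonized mice, counted in the GF direction, was 0.63. The genes were selected for passing in GF caput, which favours large GF sizes. Smaller sizes in another comparison would arise even with equal effects, so these medians do not show a weaker effect.

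Of the 41 genes, 4 were called in recolonized caput: Erdr1, Entpd4, Slc6a13 and Nnt. These genes were 9.76% of the GF list and 18.2% of the recolonized list. Seen from the other side, 20 of the 22 recolonized calls had the same sign in GF caput, the exceptions being Tmem52 and Calr3. The correlation of both effects across the 11622 genes, which are not independent, was 0.294 (Pearson) and 0.104 (Spearman).

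**Figure D3:**
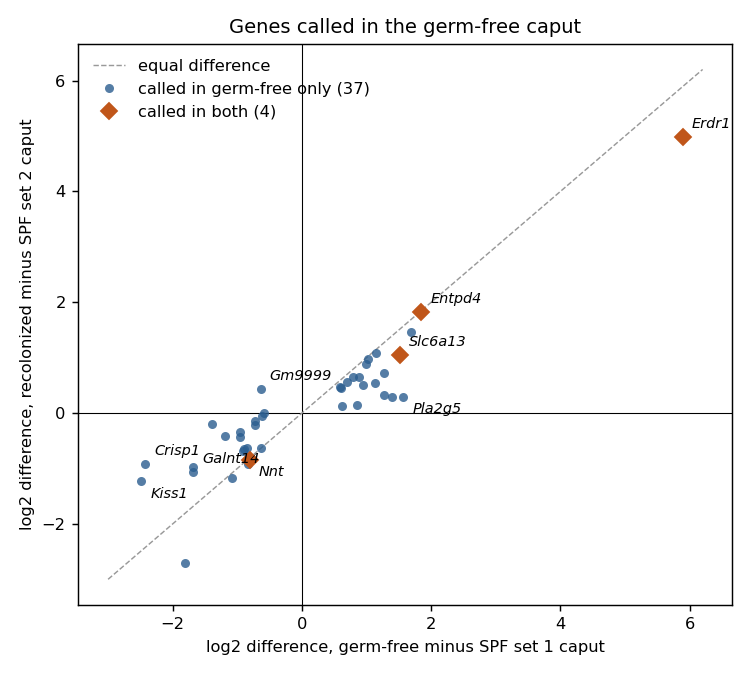
Differences on the log2(TPM + 1) scale in GF caput (x axis) and in recolonized caput (y axis) for the 41 genes called in GF caput, with the 4 called in both as diamonds. In all, 39 points have the same sign in both, and most lie nearer 0 on the y axis than the dashed line of equal difference. The genes were selected by their GF values, which favours large values on the x axis.

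Several genes called in the GF caput did not pass in recolonized mice. Crisp1, a secreted protein that binds maturing sperm, stood at 35.04, 90.6 and 81.3 TPM against 104 to 140 in SPF set 2, a difference of -0.92 ± 0.27 (adjusted p = 0.372) where that of GF was -2.42 (adjusted p = 0.018). Its lowest value was in recolonized replicate 1. Kiss1, which encodes kisspeptin, stood at 110, 18.6 and 68.5 TPM against 79.4 to 200 with overlapping groups (-1.23 ± 0.51, adjusted p = 0.567). Galnt14, which starts O-glycan chains, stood at 4.20, 5.02 and 6.63 TPM against 8.60 to 14.6 without overlap and just missed the threshold (-1.06 ± 0.17, adjusted p = 0.0569). The difference in GF caput was -1.68 ± 0.17. Pon3, a paraoxonase that hydrolyses lactones, differed by -1.17 in recolonized and by -1.09 in GF caput (limma adjusted p of 0.0569 and 0.0219).

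The posterior Hox genes Hoxa9, Hoxa10 and Hoxa11, which pattern the tract, differed by -0.43, -0.41 and -0.34 with overlapping groups (adjusted p of 0.709, 0.614 and 0.697). Eln, which encodes elastin, differed by -0.22 (adjusted p = 0.839). Among those higher in GF caput, Pla2g5, a secreted phospholipase, differed by 0.29, Hvcn1, a proton channel, by 0.32 and Hba-a2, an alpha globin, by 0.29 (adjusted p of 0.781, 0.696 and 0.783). For none of these did the recolonized and GF effects differ by the interaction test, which called Tmem52 alone. A missed threshold does not show that the effects are alike.

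For the genes called in F1 caput the agreement in sign was nearer the background. Of 328 genes called there (2.72%), 322 were tested in recolonized mice and 190 of these (59%) had the same sign, beside 52% of the 11845 genes tested in both. Both lists shared 8 genes, 2.44% of the F1 list and 36.4% of the recolonized list: Erdr1, Entpd4, Slc6a13, Pramef12, Sdk2, Gpnmb, Lcn6 and Nptx2. All 8 had the same sign. Of the 22 recolonized calls, 21 were tested in F1 caput and 20 of these had the same sign there. The interaction of the effects was called at 303 of 12396 genes (2.44%), among them 7 of the 22 (AA467197, Map4k5, Tmem52, Erdr1, Entpd4, Apol9b and Nnt).

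**Figure D4:**
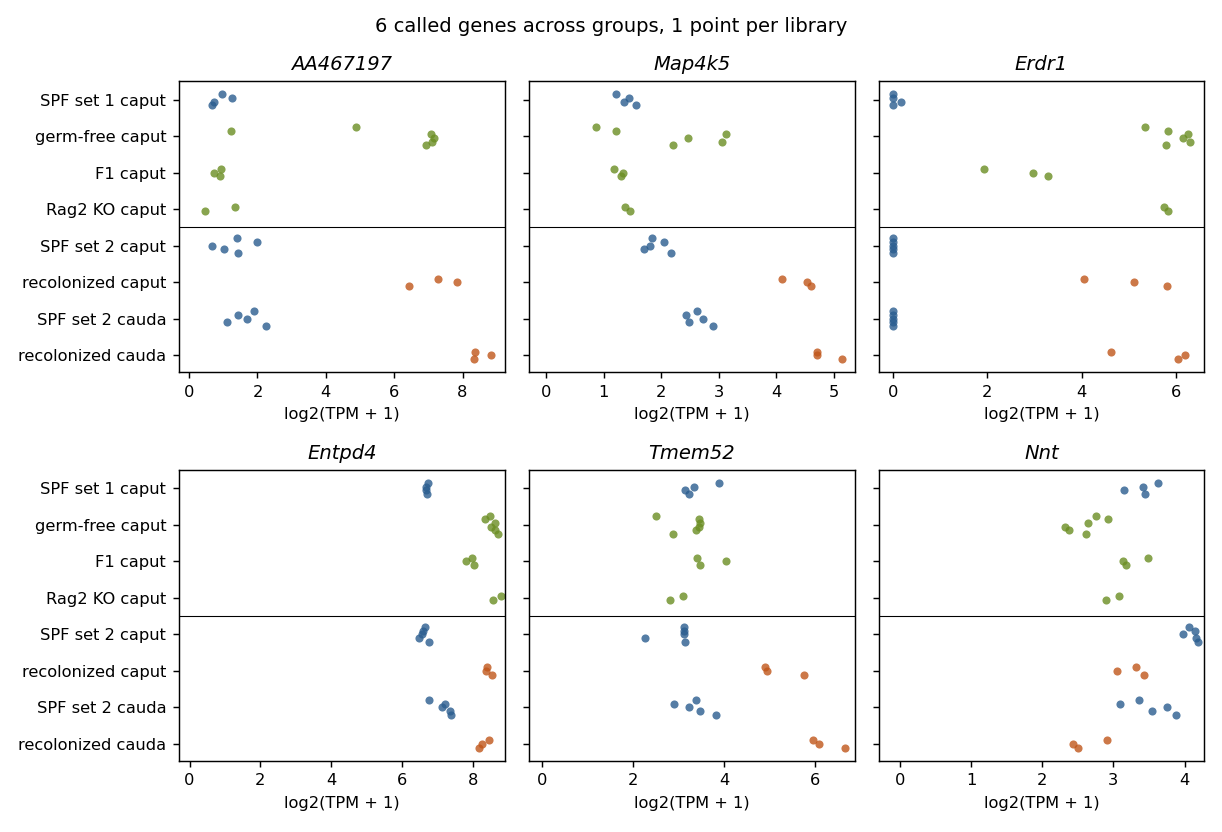
Level of 6 called genes in log2(TPM + 1) (x axis) by group (y axis), 1 point per library, with the groups of the first set above the line and those of the second set, recolonized and SPF set 2, below it. AA467197 and Map4k5 are high in recolonized caput and cauda and split within GF caput, Tmem52 is high in recolonized caput and cauda, and Entpd4 is lower in SPF caput than in each other caput group.

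In the other tissues of recolonized and SPF set 2 mice, which no label ties to the animals of the caput libraries, 41 of 12683 genes were called in cauda (0.323%) and 183 of 14264 in testis (1.28%). Of the 22 caput calls, 17 were tested in cauda, where 12 had the same sign and 7 were called: AA467197, Erdr1, Map4k5, Tmem52, Entpd4, Tmem254a and Cd59a. The effects of caput and cauda differed at 17 of 12998 genes (0.131%), among them Lcn6 (-1.05), Nptx2 (-1.70) and Slc6a13 (0.98), with limma adjusted p of 0.024, 0.024 and 0.0284. Lcn6 and Slc6a13 had means below 1 TPM in cauda. In testis 17 were tested and 3 called.

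Gene lists were then read for the caput as a whole, beside the background in which 55.9% of tested genes had a positive difference. Of 39 lists not drawn from earlier results on these colonies, 5 held a call, 1 each. In 24 of the 35 lists with at least 4 tested genes the median lay within 0.1 of 0, and the medians ranged from -0.30 to 0.44. Since in bulk tissue fewer cells of a type and less RNA per cell cannot be told apart, the lists describe RNA and not cells.

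Antigen presentation by MHC class II had the highest of these medians. Of 6 genes tested, 5 had a positive difference, the median was 0.44, 4 had an unadjusted p below 0.05 and none was called. H2-Aa, a chain of the class II molecule, stood at 92.7 to 128 TPM against 67.1 to 81.6 (0.51, adjusted p = 0.209), and Cd74, the invariant chain, at 210 to 280 against 156 to 209 (0.50, adjusted p = 0.252). The groups of both did not overlap, though for Cd74 they almost touched. The summed level of the list was 532 to 707 TPM in recolonized and 435 to 530 in SPF set 2. MHC class I and antigen processing had 12 of 13 positive with a median of 0.15, led by H2-T23, a nonclassical class I gene (0.38, adjusted p = 0.201). Macrophage genes had a median of 0.05, and Csf1r, the receptor that macrophages need, stood at means of 23.4 and 24.5 TPM.

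Interferon-stimulated genes had 15 of 17 positive, a median of 0.17 and 1 call, Xaf1. Zbp1, a sensor of nucleic acids, stood at 4.13, 4.36 and 4.71 TPM against 1.96 to 2.76 and just missed the threshold (0.66 ± 0.10, adjusted p = 0.0569). Igtp, a GTPase of vacuole defence, and Ifit3, an antiviral effector, had groups that did not overlap (0.45 and 0.61, adjusted p of 0.19 and 0.297). The groups of Irf7, a transcription factor of interferon induction, overlapped (0.22).

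T cell genes had 5 of 5 positive, with a median of 0.29 and no call. The summed level, 110 to 136 TPM against 67.0 to 87.2, came from a pair of genes. Zap70 stood at 66.9 to 97.1 TPM against 39.7 to 57.8, and Lat, which like it transmits T cell receptor signals, at 30.4, 36.9 and 41.5 against 17.4 to 24.0 (0.74 ± 0.13, adjusted p = 0.0864). The defining markers were low: Cd3e was at means of 1.89 and 1.81 TPM, Cd4 at 0.34 and 0.30, and Cd8a at 0.22 and 0.08. Cd3d and Cd8b1 were at 0 TPM in at least 1 library.

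Metabolic lists held a single call. Cholesterol and fatty acid synthesis had 23 of 24 genes positive with a median of 0.20 and 7 at an unadjusted p below 0.05 in that direction, such as Mvd and Dhcr7, enzymes of the sterol pathway (0.33 and 0.31, adjusted p of 0.243 and 0.315). None was called. In the list of mitochondrial respiratory chain genes 1 of 25 was called, and the median was -0.02. The call was Nnt, the transhydrogenase described above and not a subunit of the chain. Immediate-early genes had 16 of 20 negative and a median of -0.05, with Ier3 (-0.75) and Jun (-0.51) the furthest and not called (adjusted p of 0.133 and 0.204).

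Secreted products of the caput had medians below 0. Caput principal cell secretions had 8 of 20 positive, a median of -0.08 and the call of Lcn6. Some members of this list depended on recolonized replicate 1, the library that stood apart. Rnase9 was at 4.29 TPM in it and at 344 and 350 in the other recolonized libraries, against 14.0 to 283 in SPF set 2. Its difference was -0.22, and that of Lcn5, given above, was -0.48, though for both the other recolonized libraries lay above all controls. The medians without that library were not computed. Beta-defensins had 13 of 28 positive with a median of -0.09, and protease inhibitors 7 of 26 with a median of -0.12, and neither held a call. Glutathione peroxidases had 1 of 7 positive with a median of -0.18 and no call. Complement components and regulators had 3 of 14 positive, a median of -0.05 and the call of Cd59a.

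Fibroblast and collagen genes had 15 of 16 negative with a median of -0.30, the lowest of these medians. None reached an unadjusted p of 0.05, and their summed level of 275 to 427 TPM overlapped the 359 to 677 of SPF set 2. Sperm and spermatid transcripts, which come with luminal sperm or fragments, had 10 of 21 positive and summed levels of 632 to 763 against 408 to 900 TPM. None was called. At an unadjusted p below 0.05, 5 of the 21 were higher and 1 was lower, beside 4.03% and 4.12% of all tested genes. Among them Smcp, of the sperm mitochondrial capsule, differed by 0.97 and Oaz3, an antizyme of spermatids, by 0.88 without passing (adjusted p of 0.139 and 0.27), with groups that did not overlap, and both were called as higher in GF caput (1.02 and 0.99). Tnp1, a transition protein of spermatid chromatin, differed by -0.63 (adjusted p = 0.683) and was called as lower in GF caput (-0.85). The part of these cells in the called genes was not tested.

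**Figure D5:**
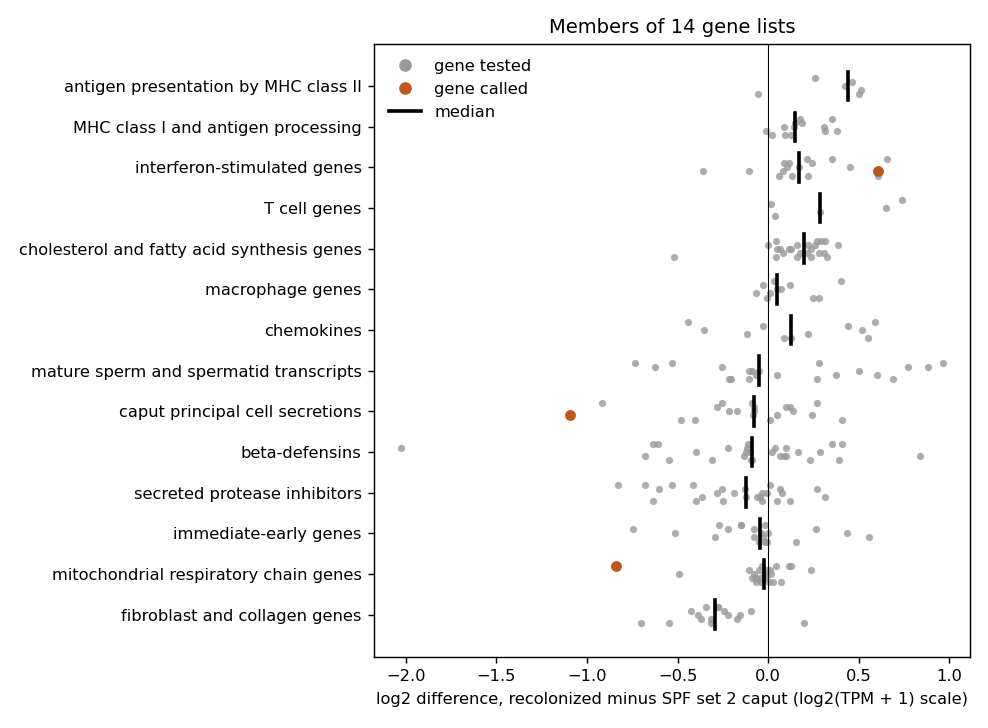
Difference between recolonized and SPF set 2 caput (x axis, log2(TPM + 1) scale) for the tested genes of 14 lists (y axis), 1 point per gene, called genes coloured and the median of each list as a bar. MHC class II genes have the highest median shown (0.44) and fibroblast and collagen genes the lowest (-0.30).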

How the data were processed

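Polyadenylated RNA of 62 mouse libraries was sequenced by the authors as paired ends of 50 bp from stranded libraries. They aligned it to mm10 and quantified it with RSEM through Via Foundry, versions not given in the sources used here, and deposited TPM per gene. TPM keep no counts, so sequencing depth and counting error are unknown and the spread between animals is the measure of precision. The authors' own tests used DESeq2 on raw counts, not analysed here. In R 4.3.3, limma 3.58.1 was fitted to log2(TPM + 1) and p-values were adjusted across the tested genes after Benjamini and Hochberg. Genes needed a mean of 1 TPM in the libraries compared. Differences between effects were tested as limma interactions. The scripts were tested on simulated data. The members, tests and 42 gene lists (708 entries, 696 in the table) were chosen with earlier results of these data known. Named genes are the 15 largest rises and falls among called genes with separate groups, a list of genes earlier called in the GF caput, no more than 4 called genes of any list and, for lists without a call, the 3 most abundant; others were named after their values were seen. Coordinates and sequences are from RefSeq (GRCm38.p6, the coordinates of mm10).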

Additional observations from a re-analysis of the deposited data

Results flagged for a closer look

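Within SPF set 2 caput, Tmem52 in replicate 2 (3.79 TPM) lay far below the other 4 libraries (7.61 to 7.75), a gap of 0.965 of the group's range. The check was run on each of the 22 called genes in this group and in GF caput, and this was its only flag. Chance flags about 1 in 20 groups of this size, so a single flag is no more than chance gives.

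The recolonized effect differed from the GF effect for Tmem52 alone, by 2.45 (limma interaction, adjusted p = 0.0271).

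Several effects differed between recolonized and F1 caput by the limma interaction, recolonized minus F1. Among the called genes they were AA467197 (5.95), Map4k5 (2.63), Erdr1 (2.30), Tmem52 (1.99), Apol9b (0.967), Entpd4 (0.594) and Nnt (-0.687). The interaction was called at 303 genes in all, most of them not called in recolonized caput. Of those, only genes just outside the threshold or on the list earlier called in the GF caput were looked at here. They gave Hist1h4m (3.05), Unc5a (-1.19), Sez6l (-1.23), Stac2 (-1.31) and Hba-a2 (-2.10). Hist1h4m belongs to a family of near-identical histone genes and stood at 2.93, 12.6 and 10.1 TPM in recolonized caput, with 4 of 5 controls listed at 0.

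The recolonized effect differed between caput and cauda, caput minus cauda, at 17 genes. Those of them that were also called in caput were Lcn6 (-1.05), Nptx2 (-1.70) and Slc6a13 (0.984).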

How the results depend on the processing

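No called gene changed sign under any setting tried. The 22 calls became 70 with array weights, 43 with all caput groups in 1 fit and 4 with the replicate block, and 16 to 30 under a pseudocount of 0.1 or 5, other filters, median centring, quantile normalization, a trended prior or both SPF sets as controls. Leaving out 1 library gave 6 to 26 calls. AA467197, Erdr1, Map4k5 and Entpd4 were called in every setting, the block included. The same numbers in both groups are not known to pair the animals. Deviations of same-numbered libraries correlated at 0.173, 0.0692 and 0.105, and in caput and cauda at -0.146 to 0.147. Same-numbered caput and cauda libraries correlated above all others for recolonized replicate 1 and SPF set 2 replicates 1 and 4 only. Such weak values cannot exclude that caput and cauda share animals, and the interaction took these libraries as independent. The interaction with GF had 1 gene, 0 with a pseudocount of 0.1, 2 with a minimum mean of 5 TPM, 3 with the replicate block and 0 to 5 with 1 library left out. With the replicate block the interaction with F1 fell from 303 genes to 2, and that with cauda from 17 to 0. The SPF sets differed at 1267 genes with that minimum in place of 2343. Of the 41 GF calls, 36 to 40 had the same sign in recolonized caput under every other setting, and 28 with the minimum of 5 TPM, where fewer were tested. The cause of the other shifts was not tested. With 3 recolonized animals from 1 colony and unknown depth, small differences of low genes cannot be resolved.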
